A study of Mus musculus with 6 samples.

Results

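The SLC25 genes encode the mitochondrial carriers, a family of proteins of the inner mitochondrial membrane. Their messenger RNA was compared between livers of treadmill-trained mice and livers of sedentary mice. All genes named Slc25a followed by a number were taken from the deposited expression table, except Slc25a13, Slc25a15, Slc25a17 and Slc25a20. This gave 41 genes of the 16123 in the table, and the 4 exceptions were left out. The exercise group held 3 mice, each with a running distance of 22 km over 6 weeks, whose liver was taken 24 h after the last session. The sedentary group held 3 mice with no treadmill training. The design text calls the mice healthy adults, while the sources used here do not give strain, sex or age. Per the labels the animals were perfused with PBS through the heart, RNA was total liver RNA taken up in TRIzol, and each library was read in pairs on DNBseq.

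Most mitochondrial carriers exchange a metabolite of the matrix for one of the cytosol, and so join the pathways on both sides of a membrane that charged molecules do not cross on their own. In the liver they serve ATP export, the citrate and malate exchanges behind fatty acid and glucose synthesis, amino acid breakdown, heme and iron-sulfur cluster assembly, and the supply of cofactors to matrix enzymes. Carrier proteins are made in the cytosol and brought into the inner membrane by dedicated import proteins.

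Library totals lay between 17941303 and 18371949 counts. Libraries of 1 group differed little beyond counting noise, except at genes of high count. For the 36 SLC25 genes with at least 20 reads in a pair of libraries, a chi-square against counting noise, which alone gives about 1, averaged 0.881 to 2.12 in pairs of 1 group. In pairs across the groups it averaged 11.4 to 13.1. Over all genes, pairs of 1 group averaged 1.126 to 1.206 at lower counts and 2.617 to 3.456 at high counts. Pairs across the groups averaged 4.226 to 4.365 and 151.7 to 171. The common coefficient of variation was 1.84%, which is low for separate mice. The design text gives 3 mice per group, and the files do not tell whether the libraries could be technical repeats or pooled RNA. The p-values and SDs here therefore measure only the spread between these libraries, and n counts libraries. FPKM is a fragment count divided by transcript length and by library size. The 10 hepatocyte markers summed to 75880 to 77210 FPKM in sedentary and 77880 to 78510 in exercise libraries. Of these 10, 7 were higher and 3 lower, beside 19.1% higher and 19.0% lower of all tested genes. None of the 3 falls passed on library totals, FPKM or TPM. Markers of other cells moved with the group as well. Pancreatic acinar markers were low in sedentary libraries, such as Amy2a5 at 2.28 to 2.69 FPKM and Ctrb1 at 0.96 to 1.62 FPKM, and 5 of the 6 were listed at 0 in every exercise library, with Cela1 as the exception. The 6 summed to 15.59 to 16.14 FPKM in sedentary and 7.45 to 8.37 in exercise libraries. Of the 5 stellate markers tested 3 were higher and 1 lower, of the 7 endothelial markers 3 were higher and none lower, and of the 2 cholangiocyte markers tested Spp1 was lower (log2 fold change -1.07). Their part in the values of the carriers was not tested. Bulk tissue holds all liver cell types, and fewer cells of a type cannot be told apart from less RNA per cell.

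A few carriers made up most of the family's RNA. By mean FPKM over the 6 libraries, 5 genes were above 100, 14 between 10 and 100, 13 between 1 and 10, and 9 below 1. The 5 most abundant were Slc25a5, Slc25a47, Slc25a3, Slc25a39 and Slc25a1, and they held 68.2% to 70.4% of the family's summed FPKM in each library. The 10 most abundant held 87.3% to 88.3%. The 9 genes with a mean below 1 FPKM were not tested. They were Slc25a2, Slc25a18, Slc25a24, Slc25a27, Slc25a31, Slc25a35, Slc25a36, Slc25a43 and Slc25a53.

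**Figure D1:**
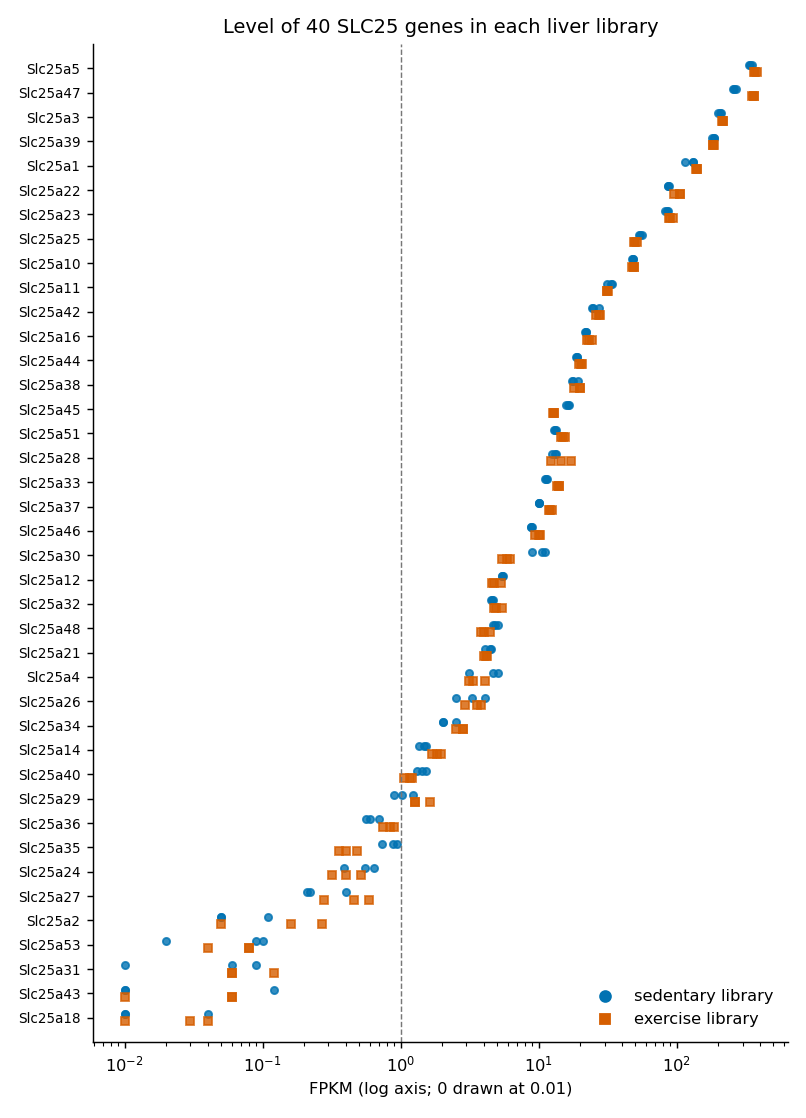
FPKM of 40 SLC25 genes in each liver library on a log axis, ordered by mean level, with circles for the 3 sedentary and squares for the 3 exercise libraries. Values of 0 are drawn at 0.01, and the dashed line marks the mean of 1 FPKM needed for the test. Slc25a5 stands at the top with 333.4 to 380.69 FPKM, and 9 genes lie below the line.

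Of the 32 tested SLC25 genes, 12 passed the threshold between exercise and sedentary livers, 6 higher and 6 lower, and 20 did not pass. The genes that rose were Slc25a47, Slc25a22, Slc25a37, Slc25a33, Slc25a51 and Slc25a1. The genes that fell were Slc25a30, Slc25a45, Slc25a25, Slc25a11, Slc25a12 and Slc25a48. The test was edgeR's quasi-likelihood test with Benjamini-Hochberg adjustment over all 10266 tested genes and a threshold of 0.05. The family's share of 37.5% stands beside 38.1% of all tested genes. The 18.75% higher stand beside 19.1%, and the 18.75% lower beside 19.0%. These shares are those of the transcriptome at large, so the count says nothing particular about the carriers. The counts by transported substrate given below stand beside the same 19.1% and 19.0%, and rest on 2 to 7 tested genes each.

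The changes were small. The median log2 fold change of the 32 genes was 0.02, against -0.0006 for all tested genes, and the median absolute change was 0.13 against 0.12. Only Slc25a30 changed at least 1.5-fold, which is 3.12% of the tested carriers beside 3.61% of all tested genes. In deposited FPKM the exercise and sedentary libraries were separate for 22 of the 32 carriers (68.75%), beside 51.0% of all tested genes. In 16 of these the exercise libraries were the higher ones, beside a background of 36.6%, and in 6 the lower ones, beside 14.3%. Of the 12 carriers past the threshold 11 were separate in this way, the exception being Slc25a11.

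The balance of directions depended on how libraries were scaled. TMM scaling, which assumes that most genes do not change, gave factors of 0.972 to 0.977 in sedentary and 1.03 in exercise libraries. With library totals alone, 16 carriers were higher and 3 lower, beside backgrounds of 34.4% and 11.7%. With limma on log2(FPKM + 1) 11 were higher and 4 lower, beside 27.9% and 10.7%. With limma on log2(TPM + 1), added after seeing the data, 16 were higher and 3 lower, beside 36.2% and 8.91%. Slc25a47, Slc25a22, Slc25a37, Slc25a33, Slc25a51 and Slc25a1 were higher, and Slc25a30 and Slc25a45 lower, past the threshold under each of these scalings. Slc25a5, Slc25a23, Slc25a34 and Slc25a46 were higher past the threshold under each of these 3 scalings but not with TMM. Where no scaling is named, a gene that passed or did not pass did so with TMM.

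The strictness of the test moved the count as well. DESeq2 called 8 carriers, beside 24.5% of all tested genes, and lost Slc25a1, Slc25a51, Slc25a12 and Slc25a48. A test against a 1.2-fold change (glmTreat in edgeR) called Slc25a47, Slc25a30 and Slc25a45, beside 6.36% of all tested genes. With each group summed to 1 library and an assumed variation of 0.1 between mice, Slc25a30 alone of the carriers passed, beside 1.71% of all tested genes.

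**Figure D2:**
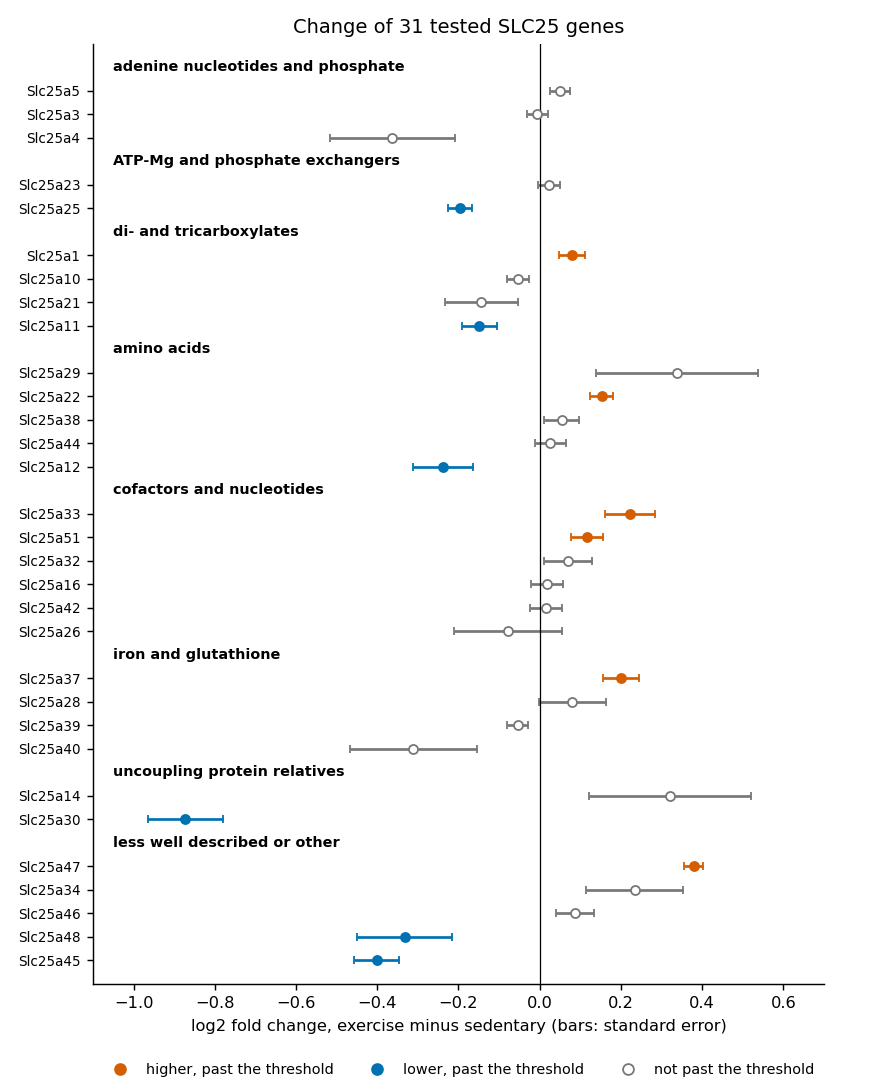
Log2 fold change, exercise minus sedentary, of 31 tested SLC25 genes by edgeR, grouped by what the carrier moves, with bars for the standard error. Filled points passed the threshold, 6 higher and 6 lower, and open points did not. Slc25a30 lies farthest to the left at -0.87 and Slc25a47 farthest to the right among the filled points at 0.38.

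Slc25a47 showed the largest rise of the family among genes past the threshold. It encodes a carrier made mainly in the liver and spans chromosome 12, 108849833 to 108856815 in GRCm38.p6 (gene ID 104910). Its level was 360.16, 348.75 and 365.03 FPKM in the exercise libraries and 268.23, 260.35 and 256.67 FPKM in the sedentary ones. Every exercise library lay well above every sedentary library. On TMM-scaled counts the log2 fold change was 0.38 (SE 0.0241, edgeR adjusted p = 3.192e-18), a 1.30-fold rise, while the FPKM means differed 1.37-fold. By FPKM this was the second most abundant carrier, close to Slc25a5 in the exercise libraries.

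The nearest other carrier gene on chromosome 12 is Slc25a29, which carries basic amino acids and ends 14.0 kb before Slc25a47. Slc25a29 was low, at 1.64, 1.28 and 1.27 FPKM in the exercise libraries and 0.89, 1.03 and 1.23 FPKM in the sedentary ones. Its exercise libraries were all above its sedentary ones by a narrow margin, with mean counts of 41.7 and 31.7. The value for Slc25a29, 0.34 on the log2 scale (SE 0.1995), did not pass (edgeR adjusted p = 0.1824). On TPM it passed narrowly as higher (limma adjusted p = 0.04879).

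Slc25a30 had the largest fall among the 32 tested carriers. It encodes a relative of the uncoupling proteins first described in kidney and spans chromosome 14, 75757534 to 75787037 (gene ID 67554). Its level was 11.15, 8.96 and 10.61 FPKM in the sedentary libraries and 5.42, 5.94 and 6.17 FPKM in the exercise ones. The groups were far apart, although the second sedentary library was the lowest of its group. Its log2 fold change was -0.87 (SE 0.0916, edgeR adjusted p = 5.012e-11), a 1.83-fold lower level, on mean counts of 267.7 and 152.0. Of 18 alternative settings 17 kept this call, all but the summed libraries with an assumed variation of 0.2.

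The promoters of these 2 genes, the largest rise and the largest fall among tested carriers past the threshold, are shown. A promoter of Slc25a25, which fell, was added because it holds a match to TGACGTCA, the cAMP response element. Each is the 250 bases before an annotated transcript start, read 5′ to 3′ on the gene's strand, from RefSeq in GRCm38.p6. Capitals mark the motifs that were searched.
Slc25a47, chr12:108850879-108851128, plus strand: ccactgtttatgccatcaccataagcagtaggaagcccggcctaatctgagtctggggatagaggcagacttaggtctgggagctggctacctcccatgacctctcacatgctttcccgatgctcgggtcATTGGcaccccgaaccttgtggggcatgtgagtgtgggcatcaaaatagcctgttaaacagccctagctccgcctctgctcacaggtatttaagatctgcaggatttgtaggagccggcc
Slc25a30, chr14:75787038-75787287, minus strand: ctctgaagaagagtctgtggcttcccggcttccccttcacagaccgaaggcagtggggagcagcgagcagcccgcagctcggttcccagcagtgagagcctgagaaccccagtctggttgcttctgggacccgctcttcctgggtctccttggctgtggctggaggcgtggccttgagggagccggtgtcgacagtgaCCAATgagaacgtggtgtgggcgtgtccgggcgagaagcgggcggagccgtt
Slc25a25, chr2:32424067-32424316, minus strand: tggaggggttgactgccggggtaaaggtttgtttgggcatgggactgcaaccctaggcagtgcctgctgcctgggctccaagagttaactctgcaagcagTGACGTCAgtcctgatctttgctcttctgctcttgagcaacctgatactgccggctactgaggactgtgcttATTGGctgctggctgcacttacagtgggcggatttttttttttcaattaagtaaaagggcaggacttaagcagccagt
The Slc25a47 start used by that table lies inside the gene's annotated span. In Slc25a47 the capitals mark CCAAT on the opposite strand, 120 bases before the start, and in Slc25a30 CCAAT, 52 bases before it. In Slc25a25, at 1 of its 3 annotated starts, they mark TGACGTCA at 150 bases and CCAAT on the opposite strand at 78 bases.

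Of the 41 carriers 31 were found in the promoter table, with 40 promoters. Both strands were searched for TGACGTCA (the cAMP response element), CACGTG (the E-box), TCAAGGTCA (the element of estrogen-related receptors) and CCAAT. None of these motifs holds another. TGACGTCA was in 2 of the 40 promoters (5.0%), those of Slc25a25 and Slc25a36, and in 1.55% of the 32851 promoters in the table. Slc25a25 fell, while Slc25a36, below the expression filter, had higher FPKM in every exercise library and did not pass when fitted without it. CACGTG was in 6 of the 40 beside 6.02%, among them that of Slc25a33 and that of Slc25a1, and CCAAT in 19 (47.5%) beside 33.8%. These are counts of promoters and not of genes. The 6 include overlapping promoters of Slc25a14 that share the same site. The 19 include overlapping promoters of Slc25a23 that share a site, and several of Slc25a25. TCAAGGTCA was in none, beside 0.387%. Carriers that rose and carriers that fell both held CCAAT, as the sequences above show. A match is a run of letters and no measured binding site.

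**Figure D3:**
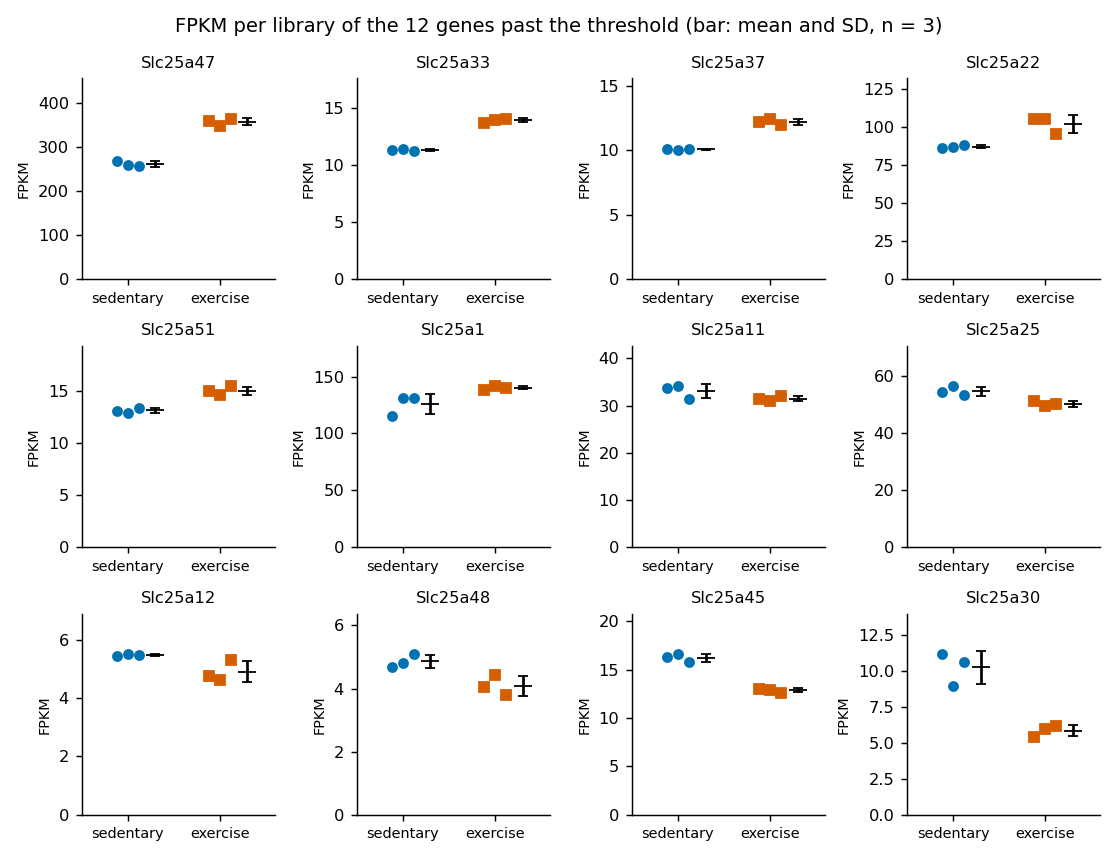
FPKM in each library for the 12 SLC25 genes past the threshold, each panel with its own axis from 0, with circles for sedentary and squares for exercise libraries and bars for the mean and SD (n = 3). The groups are separate in every panel but that of Slc25a11, where the lowest sedentary library at 31.44 lies below the highest exercise library at 32.05.

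Carriers of adenine nucleotides and phosphate feed ATP synthase and export its product, and none of the 3 tested passed the threshold. Slc25a5, adenine nucleotide translocase 2, was the most abundant carrier. It was at 380.69, 365.60 and 366.42 FPKM in the exercise libraries and 339.82, 333.40 and 349.93 FPKM in the sedentary ones. The groups did not overlap in FPKM, but edgeR gave a log2 fold change of only 0.05 with an SE of 0.0241 (adjusted p = 0.1025). It passed with library totals alone (0.13, edgeR adjusted p = 2.17e-05) and by limma on FPKM (0.12, adjusted p = 0.00648) and TPM (0.16, adjusted p = 0.001282). For Slc25a5, 27.9% of the 75-base windows of its longest GENCODE transcript also occur in other annotated genes such as the pseudogene Gm5560, and how reads from such stretches were assigned is not given in the labels or headers.

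Slc25a3, the phosphate carrier, was at 215.75, 216.12 and 214.66 FPKM in the exercise libraries and 210.28, 200.15 and 207.32 FPKM in the sedentary ones. Its log2 fold change was -0.006 (SE 0.0255, edgeR adjusted p = 0.8792), but 0.07 with library totals alone (adjusted p = 0.01762) and 0.10 on TPM (limma adjusted p = 0.007523), so its direction turned with the scaling. Slc25a4, the translocase of heart and skeletal muscle, was low at 4.65, 5.11 and 3.12 FPKM in the sedentary libraries and 4.06, 3.33 and 3.13 FPKM in the exercise ones. Its groups overlapped, and the log2 fold change of -0.36 (SE 0.1544) did not pass (edgeR adjusted p = 0.05848). Without the third sedentary library the value was -0.55 (adjusted p = 0.003808), and without the first exercise library -0.48 (adjusted p = 0.03329). Skeletal muscle markers summed to 0.02 to 0.25 FPKM in sedentary and 0 to 0.05 in exercise libraries, over the 4 in the table.

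Exchangers of ATP-Mg for phosphate are calcium-regulated and adjust the nucleotide pool of the matrix. Of the 2 tested, Slc25a25 fell and Slc25a23 did not pass. Slc25a25 (chromosome 2, 32414487 to 32451470, gene ID 227731) was at 54.38, 56.36 and 53.19 FPKM in the sedentary libraries and 51.20, 49.36 and 50.07 FPKM in the exercise ones. Each exercise library lay below each sedentary one. The fitted log2 fold change was -0.20 (SE 0.0293, edgeR adjusted p = 3.374e-07), and limma on TPM no longer called it (-0.09). Slc25a23, its relative, was at 84.38 ± 2.317 FPKM in the sedentary libraries and 90.34 ± 3.157 FPKM in the exercise ones (SD, n = 3), with a log2 fold change of 0.02 on TMM-scaled counts.

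Among the 4 carriers of di- and tricarboxylates, 1 rose, 1 fell and 2 did not pass. Slc25a11, the oxoglutarate carrier of the malate-aspartate shuttle, was at 33.70, 34.06 and 31.44 FPKM in the sedentary libraries and 31.39, 31.02 and 32.05 FPKM in the exercise ones. The third sedentary library lay within the exercise range. edgeR gave a log2 fold change of -0.15 with an SE of 0.043 (adjusted p = 0.004784), and it passed neither with library totals alone nor by limma on FPKM or TPM. Of its exon bases 8.9% overlap Rnf167 on the opposite strand, and whether the counting used strand is not given in the sources used here.

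Slc25a1, the citrate carrier that supplies acetyl units for fatty acid synthesis, was at 138.61, 141.40 and 140.41 FPKM in the exercise libraries and 115.77, 131.29 and 131.25 FPKM in the sedentary ones. The first sedentary library was low, and the other sedentary ones were nearer to the exercise group. On TMM-scaled counts the log2 fold change was 0.08 (SE 0.0321, edgeR adjusted p = 0.04658), and without that sedentary library it was 0.02 (adjusted p = 0.6292). The call also ended without any 1 of the exercise libraries, taken in order, at adjusted p-values of 0.05214, 0.1183 and 0.1155. Slc25a10, the dicarboxylate carrier, had a log2 fold change of -0.05, whose sign turned on library totals, FPKM and TPM. Slc25a21, the oxodicarboxylate carrier, had one of -0.14, and neither gene passed.

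Amino acid carriers gave 1 rise, 1 fall and 3 genes that did not pass. Slc25a22, a glutamate carrier (chromosome 7, 141429749 to 141437874, gene ID 68267), was at 105.25, 105.59 and 95.52 FPKM in the exercise libraries and 86.57, 87.19 and 87.94 FPKM in the sedentary ones. The sedentary libraries were tightly grouped, and the third exercise library was the nearest to them. Its log2 fold change was 0.15 (SE 0.0291, edgeR adjusted p = 3.097e-05).

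Slc25a12, the calcium-regulated aspartate-glutamate carrier also called aralar, was at 5.45, 5.50 and 5.47 FPKM in the sedentary libraries and 4.77, 4.61 and 5.30 FPKM in the exercise ones. The groups were separate, with the third exercise library close to the sedentary ones. The fitted log2 fold change was -0.24 (SE 0.0744, edgeR adjusted p = 0.009182), and the call ended without the second exercise library (adjusted p = 0.05966), on library totals, and by limma on FPKM and TPM. Slc25a38, which brings in glycine for heme synthesis, and Slc25a44, a carrier of branched-chain amino acids, had log2 fold changes of 0.05 and 0.03 and did not pass. On library totals both passed as higher, and by limma on TPM Slc25a44 did.

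Of the 7 tested carriers of cofactors and nucleotides, 2 rose and 5 did not pass. Slc25a33, a carrier of pyrimidine nucleotides, was at 13.68, 13.96 and 14.04 FPKM in the exercise libraries and 11.32, 11.41 and 11.21 FPKM in the sedentary ones. All exercise values were above the sedentary ones, on mean counts of 392.3 and 323.3. edgeR gave a log2 fold change of 0.22 with an SE of 0.0618 (adjusted p = 0.00345). In the annotation 14.9% of its exon bases overlap Gm13068 on the opposite strand, and the sources used here do not say whether counting used strand.

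Slc25a51, which brings NAD into the matrix, was at 14.97, 14.63 and 15.42 FPKM in the exercise libraries and 13.09, 12.87 and 13.36 FPKM in the sedentary ones. No exercise library came down to the sedentary range. On TMM-scaled counts the log2 fold change was 0.12 (SE 0.0396, edgeR adjusted p = 0.01615), and the call ended without the second sedentary library (adjusted p = 0.0758) or without the third exercise library (adjusted p = 0.07811). Among the carriers that did not pass were Slc25a42 for coenzyme A, Slc25a32 for folate or FAD, Slc25a26 for S-adenosylmethionine, and Slc25a16. The log2 fold changes of these 4 lay between -0.08 for Slc25a26, whose sign turned on the FPKM and TPM scales, and 0.07 for Slc25a32. On library totals Slc25a42, Slc25a32 and Slc25a16 passed as higher, and by limma on TPM Slc25a16 did.

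Iron and glutathione carriers support heme, iron-sulfur clusters and the redox state of the matrix, and 1 of the 4 rose while 3 did not pass. Slc25a37, mitoferrin 1, was at 12.17, 12.45 and 11.94 FPKM in the exercise libraries and 10.08, 10.03 and 10.11 FPKM in the sedentary ones. The sedentary values were nearly equal, and all exercise values were above them. Its log2 fold change was 0.20 (SE 0.0439, edgeR adjusted p = 0.0002358). Mitoferrin 1 is also made in red cell precursors. Of the 5 erythroid markers tested 4 were lower in exercise and 1 did not pass, beside 19.0% lower of all tested genes. The sum over all 8 was 380.8 to 392.8 FPKM in sedentary and 334.9 to 351.7 in exercise libraries, and Slc4a1 and Epb42 were at or near 0. Of those 4 markers Hba-a1, Hba-a2 and Alas2 no longer passed on library totals, FPKM or TPM, and Hbb-bs did. Their part in the value of Slc25a37 was not tested. Counts of Slc25a37 were not whole numbers, and 7.5% of its windows occur in Gm16867.

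Slc25a39, a glutathione carrier, was at 186.41, 181.98 and 184.16 FPKM in the exercise libraries and 187.03, 186.69 and 179.60 FPKM in the sedentary ones. The groups overlapped fully. Its log2 fold change was -0.05 (edgeR adjusted p = 0.09167), with the sign turned on library totals and on TPM. Slc25a28, mitoferrin 2, had a log2 fold change of 0.08 and Slc25a40, a relative of Slc25a39, one of -0.31, and neither passed.

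Among the uncoupling protein relatives Slc25a30 fell, as given above, and Slc25a14 did not pass. Slc25a14 was at 1.70, 1.85 and 1.97 FPKM in the exercise libraries and 1.47, 1.37 and 1.52 FPKM in the sedentary ones, on mean counts of 39.0 and 30.0. Its log2 fold change was 0.32 (SE 0.2003, edgeR adjusted p = 0.2105). By limma on FPKM and on TPM Slc25a14 passed as higher, and on library totals it did not pass. The difference between the 2 genes' changes was not tested.

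Of the 5 tested carriers that are less well described, Slc25a47 rose, Slc25a45 and Slc25a48 fell, and Slc25a34 and Slc25a46 did not pass. Slc25a45 (chromosome 19, 5877801 to 5885768, gene ID 107375) was at 16.25, 16.59 and 15.75 FPKM in the sedentary libraries and 13.02, 12.93 and 12.61 FPKM in the exercise ones. The groups were clearly apart. The fitted log2 fold change was -0.40 (SE 0.0555, edgeR adjusted p = 6.112e-08), a 1.32-fold lower level.

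Slc25a48, linked to choline import, was at 4.68, 4.81 and 5.09 FPKM in the sedentary libraries and 4.04, 4.43 and 3.8 FPKM in the exercise ones. The second exercise library was the nearest to the sedentary group. edgeR gave a log2 fold change of -0.33 with an SE of 0.1163 (adjusted p = 0.01992) on mean counts of 114.7 and 94.7. The call ended without the third sedentary library (adjusted p = 0.07617) and without the first or the third exercise library (adjusted p = 0.05814 and 0.08287), and on library totals. Slc25a46, an outer membrane protein that acts in mitochondrial shape, had a log2 fold change of 0.09, and Slc25a34 one of 0.23 with an adjusted p of 0.1171 by edgeR, which became 0.03835 without the third sedentary library.

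The 9 carriers below the expression filter were fitted again with no filter. Slc25a35 was at 0.73, 0.94 and 0.88 FPKM in the sedentary libraries and 0.36, 0.40 and 0.48 FPKM in the exercise ones, from 20, 26 and 23 counts against 9, 11 and 12. The groups did not overlap, and the log2 fold change was -1.15 (edgeR adjusted p = 0.003523). Of its exon bases 31.3% overlap Rangrf on the opposite strand, so reads of the 2 genes may be mixed. Slc25a27, a neural uncoupling protein relative, had a log2 fold change of 0.66 (edgeR adjusted p = 0.02822), with overlapping groups of 0.21 to 0.40 FPKM in sedentary and 0.28 to 0.59 in exercise libraries. Slc25a36, a pyrimidine nucleotide carrier, and Slc25a24, an ATP-Mg exchanger, had log2 fold changes of 0.35 and -0.41 and did not pass. The other 5, Slc25a2, Slc25a18, Slc25a31, Slc25a43 and Slc25a53, had 0 to 6 counts in each library and adjusted p-values of 0.4374 or more.

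The family's summed level was 1819, 1793 and 1804 FPKM in the exercise libraries and 1636, 1629 and 1634 FPKM in the sedentary ones. The groups did not overlap, and the means were 1805 ± 13.4 and 1633 ± 3.68 FPKM (SD, n = 3). The ratio of exercise to sedentary was 1.105 in FPKM, 1.132 in TPM and 1.041 in TMM-scaled counts. Without Slc25a47 the ratios were 1.055, 1.081 and 1.005, so the size of the summed rise depended on the scaling and on that 1 gene.

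Shares of the family's sum do not depend on library scaling. Slc25a47 held 16.39%, 15.98% and 15.70% of the summed FPKM in sedentary and 19.80%, 19.45% and 20.23% in exercise libraries. That is a difference of 3.803 percentage points, from 16.0% ± 0.346 to 19.8% ± 0.390 (SD, n = 3). The shares of Slc25a39, Slc25a3 and Slc25a25 were lower in exercise, by -1.09, -0.669 and -0.565 points. The share of Slc25a5 differed by -0.337 points with overlapping groups. Since shares add up to the whole, a larger share of Slc25a47 leaves a smaller summed share for the other genes. Not every other share was lower. That of Slc25a22 was higher by 0.316 points with overlapping groups, and that of Slc25a33 by 0.077 points with separate groups. The part of Slc25a47 in the lower share of any 1 gene was not tested.

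**Figure D4:**
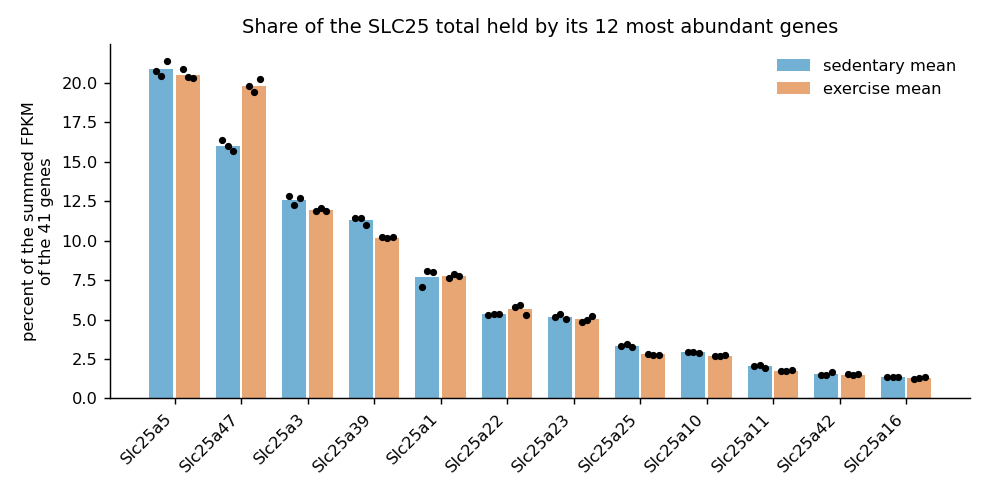
Percent of the summed FPKM of the 41 SLC25 genes held by each of the 12 most abundant, with bars for the mean of 3 libraries and points for the libraries. Slc25a47 goes from 16.0% in sedentary to 19.8% in exercise libraries, while Slc25a39 goes from 11.3% to 10.2%.

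**Figure D5:**
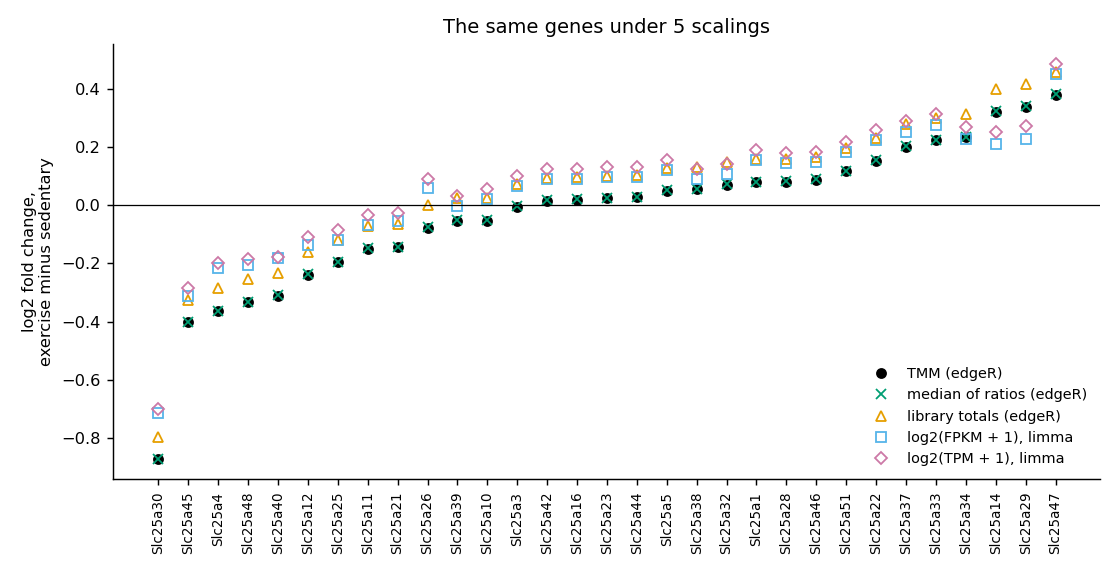
Log2 fold change, exercise minus sedentary, of 31 tested SLC25 genes under 5 scalings, ordered by the TMM value. Values on library totals, FPKM and TPM mostly sit above the TMM values, as for Slc25a3 with -0.006 on TMM and 0.07 on library totals, and Slc25a30 is lowest and Slc25a47 highest under FPKM and TPM too.

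The genes around the carriers moved in both directions as well. Of the family members with other names, Mtch2, an outer membrane insertase, rose (log2 fold change 0.17, edgeR adjusted p = 0.001146), Ucp2 fell, and Mtch1 did not pass. Without the first sedentary library Mtch2 no longer passed (0.08, edgeR adjusted p = 0.07886), nor did it by DESeq2 (adjusted p = 0.2269). Ucp2, an uncoupling protein relative, was at 20.60, 19.14 and 16.30 FPKM in the sedentary libraries and 14.33, 15.13 and 15.60 FPKM in the exercise ones. Its groups were separate, and the log2 fold change was -0.39 (SE 0.0676, edgeR adjusted p = 7.143e-06). In liver Ucp2 is strong in macrophages. Of the 8 macrophage markers 6 were lower and 2 did not pass, beside 19.0% lower of all tested genes. The sum of the 8 was 157.3 to 158.5 FPKM in sedentary and 131.0 to 135.3 in exercise libraries. Adgre1 and Cd68 among the 6 no longer passed by DESeq2, on library totals, or by limma on FPKM and TPM, and Cd68 also not without the first sedentary or the second exercise library. Their part in the value of Ucp2 was not tested.

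Of 14 tested other transporters of the inner membrane 1 rose, 6 fell and 7 did not pass, beside 19.1% higher and 19.0% lower of all tested genes. Their median log2 fold change was -0.09, against -0.0006 for all tested genes. Over all 16 in the list the summed FPKM was 647.9 to 666.2 in sedentary and 703.0 to 718.3 in exercise libraries. The largest parts of that sum were Mpc2, with means of 222.7 and 265.0 FPKM, Mpc1 and Ghitm, and the last 2 did not pass. By limma on log2(FPKM + 1) the median log2 fold change of all tested genes was itself 0.06263. Mpc2, a subunit of the pyruvate carrier, rose (0.19, edgeR adjusted p = 1.932e-06), while its partner Mpc1 did not pass (0.01). The genes that fell included Micu2, a regulator of calcium uptake (-0.38), Slc8b1, the sodium-calcium exchanger (-0.26), Letm1, a cation exchanger (-0.16), and Abcb8, an ABC transporter (-0.29). Sfxn1, a serine carrier, and Sfxn5 fell too, by 0.17 and 0.16 on the log2 scale. The falls of Letm1, Sfxn1 and Sfxn5 no longer passed by limma on FPKM or TPM, that of Slc8b1 not on TPM, and that of Sfxn5 also not without the third sedentary library or without the first or the second exercise library (edgeR adjusted p = 0.164, 0.05581 and 0.09848). On library totals the falls of Letm1 and Sfxn5 did not pass either (edgeR adjusted p = 0.06844 and 0.2422). By DESeq2 that of Sfxn5 did not pass (adjusted p = 0.1455). The outer membrane channels Vdac1, Vdac2 and Vdac3 did not pass.

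Of the 13 genes for import of carrier proteins 2 rose, 1 fell and 10 did not pass, against the same background of 19.1% and 19.0%. Timm9, a small chaperone that guides carriers between the membranes, rose from 24.7 ± 1.59 to 33.7 ± 1.04 FPKM (SD, n = 3; log2 fold change 0.38, edgeR adjusted p = 8.251e-06). Timm29, of the insertion complex, rose by 0.13, and Agk, of the same complex, fell by 0.38 on the log2 scale, so the insertion complex held changes of both signs. By DESeq2 neither passed (adjusted p = 0.08458 and 0.05334).

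Of 24 tested enzymes that use what carriers move, 4 rose, 5 fell and 15 did not pass, again beside 19.1% and 19.0%. Alas1, the first enzyme of heme synthesis in the matrix, was at 204.15, 201.23 and 198.07 FPKM in the sedentary libraries and 71.64, 71.22 and 68.68 FPKM in the exercise ones. On TMM-scaled counts the log2 fold change was -1.59 (SE 0.0251, edgeR adjusted p = 4.831e-43). The glycine carrier Slc25a38 did not pass, and mitoferrin 1 rose, as given above. Me1, malic enzyme of the cytosol, rose from 35.2 ± 0.815 to 58.1 ± 1.15 FPKM (SD, n = 3; log2 fold change 0.65, edgeR adjusted p = 1.921e-23).

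Glud1, glutamate dehydrogenase, rose by 0.11 on the log2 scale beside the glutamate carrier Slc25a22, and Cs, citrate synthase, rose by 0.10, a call that ended without the second sedentary library (edgeR adjusted p = 0.05956). Acly, which splits exported citrate, fell by 0.11 on TMM-scaled counts, but the call ended on library totals (-0.03) and FPKM (-0.03) and the sign turned on TPM. Nnt, which makes NADPH in the matrix, rose by 0.25. Got1, the cytosolic transaminase of the malate-aspartate shuttle, fell by 0.19, though not past the threshold on TPM. Got2 (-0.03), Mdh1 (-0.03) and Mdh2 (0.06), the other enzymes of that shuttle, did not pass. The signs of Got2 and Mdh1 turned on library totals, FPKM and TPM, and on TPM both passed as higher (0.08 each, limma adjusted p = 0.01282 and 0.01938). Shmt2, of one-carbon metabolism, and Coasy, of coenzyme A synthesis, fell by 0.14 and 0.10 on TMM-scaled counts, with the sign of Coasy turned on TPM. Neither fall passed on library totals, FPKM or TPM, and that of Coasy ended too without the second sedentary library (edgeR adjusted p = 0.05633) or the first exercise library (0.1983).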

How the data were processed

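Liver RNA-seq of 3 exercise and 3 sedentary mice was analysed from the deposited gene table. Per the file headers it holds a read count, an FPKM and a TPM for each gene and library. The deposited counts are estimated counts, not whole for 1165 of 16123 genes, and were rounded. The authors' FPKM and TPM values were used as given. The 6 columns of averages were not used. The submitters' processing notes list cutadapt, featureCounts, MultiQC and the build GRCm38.p6. Neither aligner nor annotation nor strand setting is given in the sources used here. Reads of low quality were removed, per the labels' protocols.

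The 10266 genes averaging 1 FPKM or more were tested with edgeR 4.0.16 in R 4.3.3 (TMM scaling, quasi-likelihood F test, two-sided, no covariates), with Benjamini-Hochberg adjustment over them and a threshold of 0.05. Each log2 fold change is exercise minus sedentary, and its SE is the log2 fold change over the square root of F. The scripts were checked on simulated data. limma 3.58.1 and DESeq2 1.42.0 served as alternatives. Library numbers only name libraries.

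Values per library are given for the 6 highest and 6 lowest members past the threshold, the most abundant members and 1 or 2 of each group, and the rest by log2 fold change or count. Members and lists were chosen with earlier results of these data known. Slc25a29, Slc25a14 and Slc25a35 were given library by library after their values were seen. Coordinates are from RefSeq in GRCm38.p6, counted from 1. Sequence shared with other genes and exon overlaps were read from GENCODE M21. Values of 1 carrier and 1 marker are not reported here and are not drawn, though counts and sums include them.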

Additional observations from a re-analysis of the deposited data

How the results depend on the processing

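Median-of-ratios scaling gave the same 12 carriers, and so did the fit with the replicate number as a block, with 3846 genes past the threshold in all. Deviations of libraries with the same number correlated at -0.0306 to -0.0159. That cannot tell whether the libraries were paired, since most of these deviations are near counting noise. Library totals alone gave 19 carriers past the threshold (16 higher, 3 lower, median log2 fold change 0.1024), and limma on log2(TPM + 1), chosen after seeing the data, also 19 (16 higher, 3 lower, median 0.1261). limma gave 11 higher and 4 lower on log2(FPKM + 1) (median 0.09186), and the same counts on log2(FPKM + 0.1) (median 0.09573). Medians over all tested genes were 0.07703 on library totals and 0.09562 on TPM. They were 0.06263 on log2(FPKM + 1) and 0.07109 on log2(FPKM + 0.1). On log2(FPKM + 0.1), 2856 of the 10266 tested genes were higher and 1096 lower. Slc25a3 reversed from -0.006 to 0.0717 on library totals and 0.1002 on TPM. DESeq2 called 2512 genes in all, against 3913. The 1.2-fold test left 3 carriers (1 higher, 2 lower) and 653 genes. With 1 summed library per group and edgeR's exact test at an assumed variation of 0.1, 1 carrier passed (0 higher, 1 lower) and 176 genes. At 0.2 it was 0 carriers (0 higher, 0 lower) and 23 genes, with 1 carrier at an unadjusted p under 0.05. At 0.1, 1 carrier was at an unadjusted p under 0.05. Leaving out 1 library at a time gave 4 to 7 carriers higher and 5 to 6 lower. In these fits 3402 to 3491 of the 10266 tested genes passed. Without a filter 13 of the 41 carriers passed, since Slc25a27 and Slc25a35 were added and Slc25a1 was lost. In that fit 3905 of 16093 genes passed. With a mean FPKM of at least 5, Slc25a39 was added, Slc25a1 lost and Slc25a48 not tested. There 11 of 22 carriers and 2885 of 6583 genes passed. Depth limits the rarest tested carriers: Slc25a14, Slc25a29 and Slc25a40, at mean counts of 30.0 to 61.7, had standard errors of 0.156 to 0.2003.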
